A study of Mus musculus with 6 samples.

Results

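The network of 10 genes that forms around the transcription factor MAX was followed in mouse medulloblastomas with and without Crebbp, 3 arrays of each. The members, Mycn, Myc, Mycl, Max, Mxd1, Mxd3, Mxd4, Mxi1, Mnt and Mga, were taken by gene symbol, and all 10 were found among the 22180 genes with a named array feature. Where a gene had more than 1 feature the one with the highest mean over the 6 arrays was used, so 11 features carried the 10 genes and only Mxi1 had more than 1. Values are log2 levels made by RMA, a method that corrects background, brings arrays to a common distribution and summarises the probes of each feature. All changes are knockout minus wild type.

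The wild type group (genotype Math1Cre::SmoM2Fl/+) carried SmoM2, a constitutively active Smoothened that switches on Sonic hedgehog (SHH) signalling, and the knockout group (Math1Cre::CrebbpFl/FlSmoM2Fl/+) carried the same SmoM2 allele together with floxed Crebbp, the gene of a histone acetyltransferase. The sample descriptions name the driver Math1CreERT2, a tamoxifen-dependent Cre under Math1 (Atoh1) control, which acts in granule neuron progenitors of the cerebellum. Cells of the tumour that do not descend from cells in which it acted would keep Crebbp. Mice of both groups were injected with 1 mg tamoxifen on postnatal day 5, and those with overt tumours were killed on postnatal day 60; the age label, postnatal day 5, matches the injection. Separate litters or animals are not stated for tumours of the same group, so the tests measure only the spread between these 6 arrays.

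MYC, MYCN and MYCL bind DNA as dimers with MAX, mainly at the E-box CACGTG, and drive genes of ribosome production, metabolism and cell division. The MXD proteins, MXI1 and MNT compete for MAX and recruit SIN3 and histone deacetylases to repress such genes, and MGA brings MAX into a variant Polycomb complex. Mycn is a target of SHH signalling in granule neuron progenitors and is required for their expansion. Mxd3 is known as the MXD member that is expressed in cycling progenitors, while Mxd1, Mxd4 and Mxi1 are usually associated with cells that leave the cycle.

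Crebbp itself was lower in all knockout arrays (11.20 to 11.34) than in wild type arrays (11.70 to 11.80), with a log2 change of -0.50 (SE 0.09, limma adjusted p = 0.0948). The arrays of the groups also carried opposite sex-linked patterns. Xist lay at 5.13 to 5.74 in wild type and at 12.26 to 12.45 in knockout arrays, and the Y-linked Kdm5d at 9.32 to 9.37 and at 4.59 to 4.75. Genotype and sex therefore cannot be told apart here, and this holds for every comparison; 0 of the 10 network genes lie on X or Y. Granule progenitor markers were well represented, with Atoh1 at 10.93 to 11.64 over the 6 arrays and Zic1 at 12.60 to 13.08. In bulk tumour RNA a lower level can mean fewer cells of a type or less RNA per cell, and these cannot be distinguished.

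None of the 10 genes passed the threshold of an adjusted p of 0.05 over all genes in the limma fit, where 0.207% of genes passed. The adjusted p-values of the members ran from 0.106 for Mxi1 to 0.976 for Max, and 2 of them, Mxi1 and Mycn, had an unadjusted p under 0.05 with lower knockout levels, against 6.51% of all genes with lower knockout levels and 13.8% in either direction. In 3 genes, Mycn, Mxi1 and Mnt, every knockout value lay below every wild type value, and in 0 every knockout value lay above. Such separation, in either direction, was found in 19.6% of all genes, and with the knockout lower in 9.43%. In total 7 of the 10 changes were below 0, against 49.1% of all genes, and their median was -0.19 against 0.0039 for all genes.

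**Figure D1:**
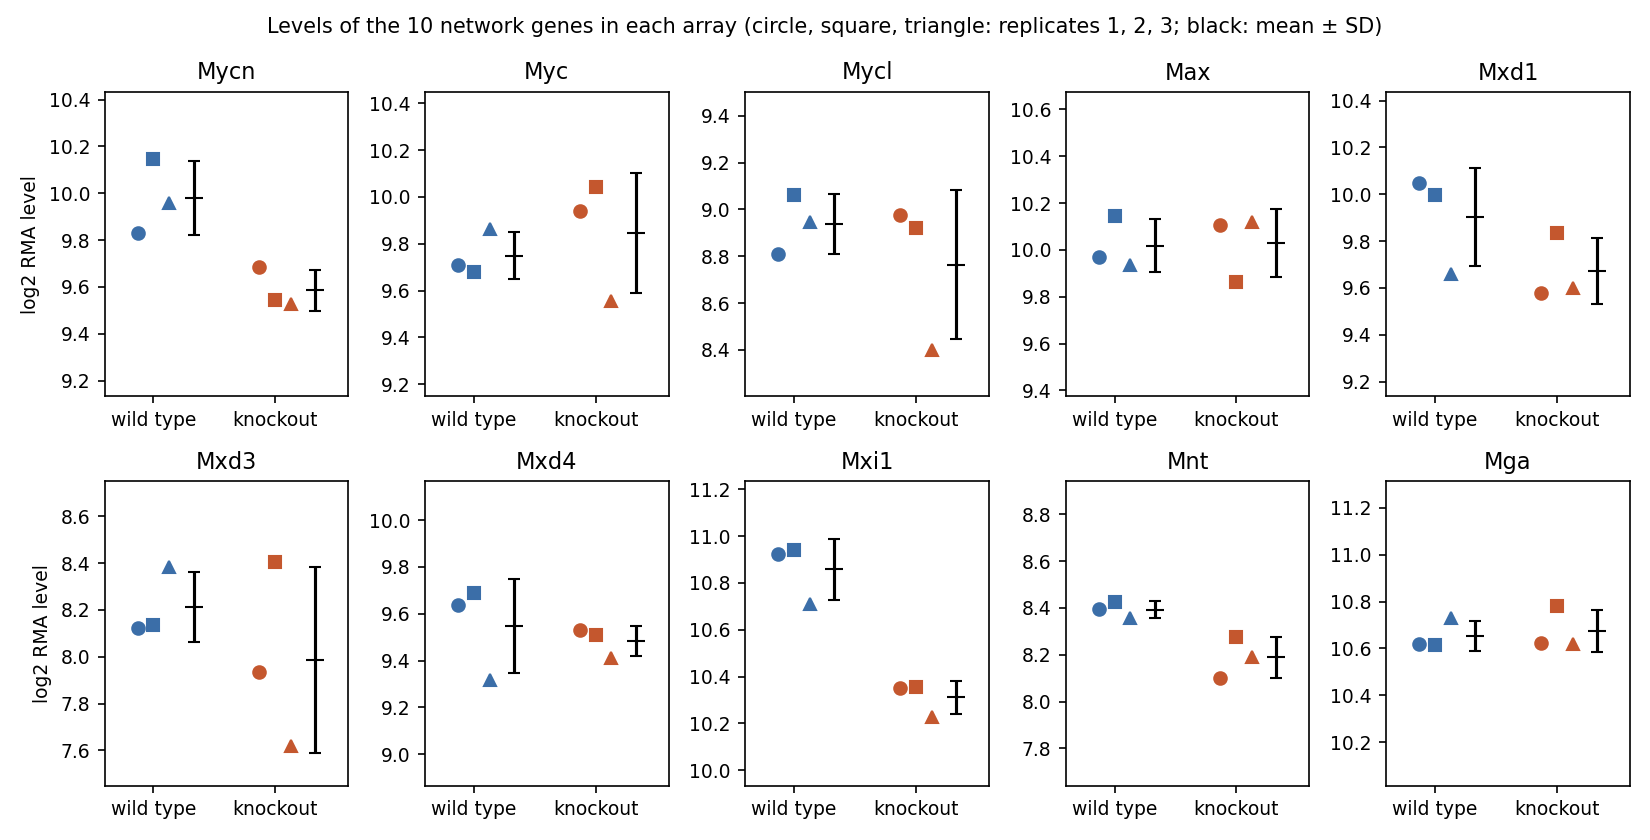
Log2 RMA level (y axis, each panel spanning 1.3 log2 units) of the 10 network genes in the 3 wild type and 3 knockout arrays, with the mean and SD of each group in black. Knockout values lie below all wild type values in Mycn, Mxi1 and Mnt and overlap them in the other 7 genes.

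Of the MYC paralogues, Mycn was the one with separated groups. Mycn (chromosome 12) had levels of 9.83, 10.15 and 9.96 in wild type replicates 1 to 3 and of 9.69, 9.54 and 9.53 in knockout replicates 1 to 3. The highest knockout value lay 0.14 below the lowest wild type value. The means were 9.98 ± 0.16 and 9.59 ± 0.09 (SD, n = 3 each), a log2 change of -0.39 (SE 0.11, 95% interval -0.65 to -0.14, limma adjusted p = 0.202), or 1.31-fold more in wild type. An exact permutation test of 3 against 3 arrays cannot return a p below 0.1, and none was made for single genes.

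The Mycn promoter is shown because E2F factors are known regulators of Mycn and because E2f1 is among the cell cycle genes described further on. The stretch, chr12:12941787-12942086 on the minus strand (GRCm38.p6, RefSeq), runs from 250 bases before the transcription start to 50 bases from it, and the capitals mark matches to the E2F motif.

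Mycn promoter: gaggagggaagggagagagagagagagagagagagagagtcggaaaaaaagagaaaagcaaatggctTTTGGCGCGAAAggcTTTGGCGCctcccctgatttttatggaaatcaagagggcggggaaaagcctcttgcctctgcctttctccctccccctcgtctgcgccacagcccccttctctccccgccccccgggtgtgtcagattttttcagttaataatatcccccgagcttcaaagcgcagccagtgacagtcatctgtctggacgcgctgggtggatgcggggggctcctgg

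Motifs were searched on both strands of these 300-base windows. The E2F motif was spelled TTTCCCGC, TTTGGCGC, TTTCGCGC or TTTGCCGC, and 2.26% of the 32851 promoters in the RefSeq table hold a match. Each spelling contains a CpG. The Mycn window has 14 CpGs against a median of 7 over all promoters, so this share comes from unlike windows. The Mycn window holds 3 matches, beginning 183, 179 and 168 bases before the start, of which the first and the second overlap. It holds no E-box (CACGTG), no cyclic AMP response element (TGACGTCA) and no match to the GLI motif GACCACCCA.

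Myc, the founding member of the family, overlapped between the groups. Myc (chromosome 15) had levels of 9.71, 9.68 and 9.86 in wild type and of 9.94, 10.04 and 9.56 in knockout arrays. Knockout replicates 1 and 2 were thus the highest and knockout replicate 3 the lowest of the 6 arrays. Its log2 change was 0.10 (SE 0.14, 95% interval -0.23 to 0.42, limma adjusted p = 0.811), and -0.0017 without knockout replicate 2.

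Mycl (chromosome 4), the paralogue first found in lung cancer, had levels of 8.81, 9.06 and 8.95 in wild type and of 8.97, 8.92 and 8.40 in knockout arrays. Again knockout replicate 3 stood below the other arrays, while the other knockout values lay within the wild type range. The log2 change was -0.17 (SE 0.16, 95% interval -0.55 to 0.20, limma adjusted p = 0.691), and 0.0096 without knockout replicate 3.

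The difference between paralogues was tested on the difference of their log2 values within each array, over 9 pairs in all, 3 of MYC and 6 of MXD genes. The change of Mycn was below that of Myc by a log2 difference of -0.49 (SE 0.18, exact permutation p = 0.1, adjusted over the pairs 0.225), and it kept that sign with each array left out (-0.60 to -0.37). Mycn and Mycl differed by -0.22 (SE 0.16, exact permutation p = 0.4, adjusted 0.514), and by -0.12 without knockout replicate 2 or -0.37 without knockout replicate 3. The difference of Mycl from Myc was -0.27 (SE 0.11, exact permutation p = 0.1, adjusted 0.225), and -0.17 without wild type replicate 2. With 0.1 as the smallest possible p, none of these could pass.

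Max (chromosome 12), the common partner, had closely similar levels in the groups. The values were 9.97, 10.15 and 9.94 in wild type and 10.11, 9.86 and 10.12 in knockout arrays. Its log2 change was 0.01 (SE 0.11, 95% interval -0.24 to 0.27, limma adjusted p = 0.976), and the sign turned in several alternatives, among them subtraction of array medians (-0.016).

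**Figure D2:**
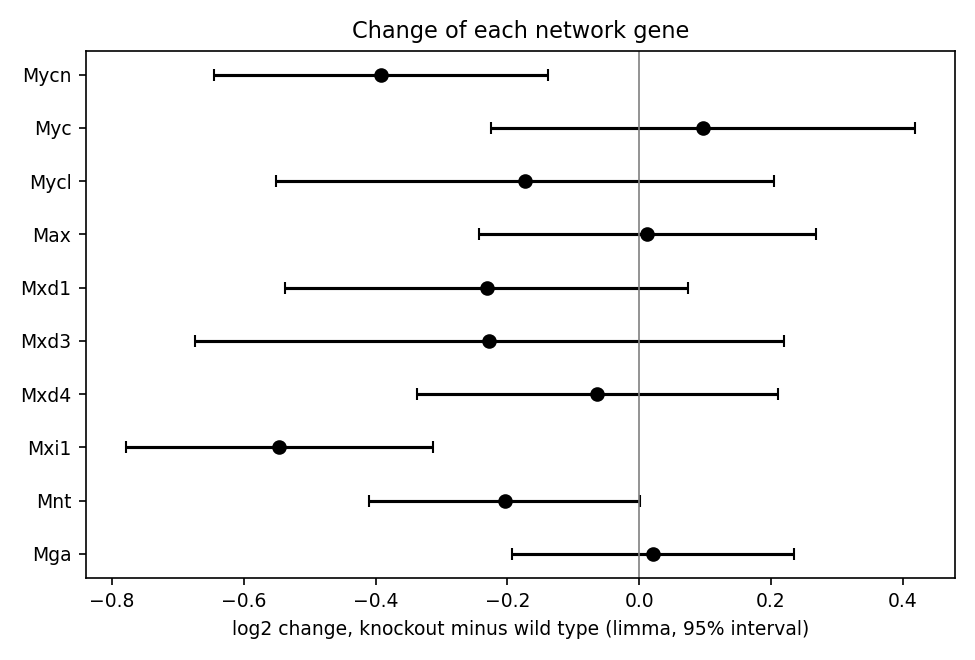
Log2 change (x axis, knockout minus wild type) of each network gene with its 95% interval from limma. The intervals of Mycn and Mxi1 lie below 0, that of Mnt ends at 0.00093, and those of the other genes span 0.

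Among the repressors, Mxi1 had the lowest change of the network. Mxi1 (chromosome 19), a SIN3-recruiting antagonist of MYC, had levels of 10.92, 10.94 and 10.71 in wild type and of 10.35, 10.35 and 10.23 in knockout arrays. The gap between the groups, 0.35, was wider than the whole range within either group. The means were 10.86 ± 0.13 and 10.31 ± 0.07 (SD, n = 3 each). The log2 change was -0.55 (SE 0.10, 95% interval -0.78 to -0.31, limma adjusted p = 0.106), or 1.46-fold more in wild type. With a variance that depends on level and a robust prior (eBayes with trend and robust), Mxi1 passed the threshold (adjusted p = 0.0333), and over all 15 alternatives its adjusted p ran from 0.0333 to 0.291.

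The other Mxi1 feature (17365690, against 17360331 for the one above) differed more between the groups. Its levels were 10.37, 10.68 and 9.92 in wild type and 9.02, 8.65 and 7.98 in knockout arrays. The groups were 0.89 apart at their nearest values, and the log2 change was -1.77 (SE 0.30, limma adjusted p = 0.112 over all 41345 features), or 3.41-fold more in wild type. With the mean of both features in place of the brighter one the change of Mxi1 was -1.16 (adjusted p = 0.0643), and leaving out single arrays gave -2.01 to -1.48 for the other feature alone.

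These features may not read the same transcripts. Of the 20 named neighbours of feature 17360331 in number order, 18 have a strand in the RefSeq table and all 18 are plus strand genes of chromosome 19. For feature 17365690 the number is 19, and all 19 are minus strand genes of that chromosome. Mxi1 lies on the plus strand, and which strand the feature 17365690 reads is not given in the sources used here. A transcript from the opposite strand therefore cannot be told apart from Mxi1 mRNA in its values.

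**Figure D3:**
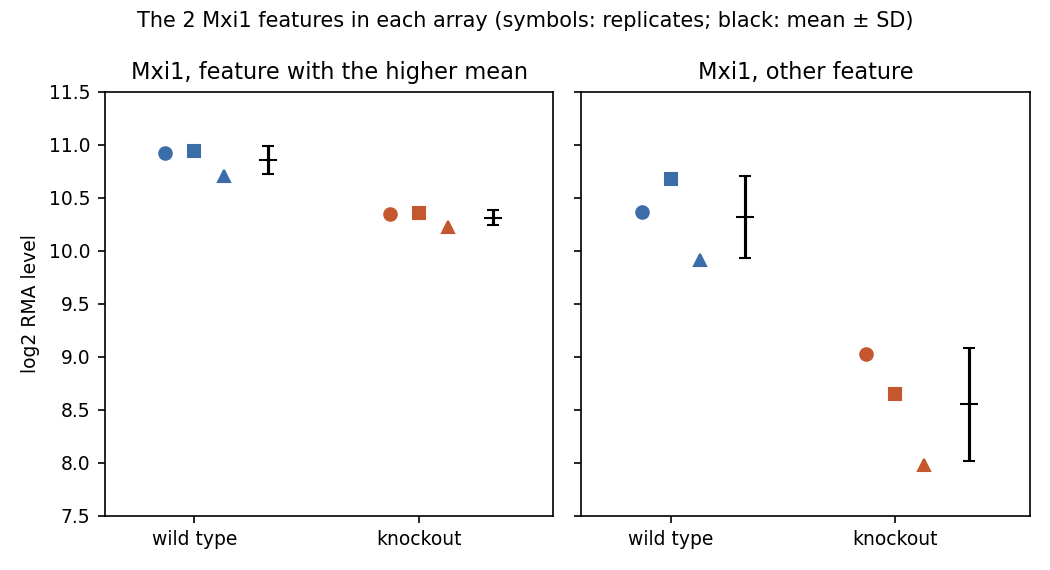
Log2 RMA level (y axis) of the features assigned to Mxi1 in each array, feature 17360331 on the left and 17365690 on the right, with mean and SD in black. In both, every knockout value lies below the wild type range, with log2 changes of -0.55 and -1.77.

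Mxi1 has 3 start windows in the RefSeq table. Its most upstream and most downstream are shown because the array features do not say from which start the measured transcripts come. They lie at chr19:53310256-53310555 and chr19:53329445-53329744 on the plus strand (GRCm38.p6), and none of the motifs searched occurs in them, so they hold no capitals. The most downstream overlaps the remaining window, chr19:53329163-53329462, so it can hold transcribed sequence of transcripts that start there.

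Mxi1 upstream promoter: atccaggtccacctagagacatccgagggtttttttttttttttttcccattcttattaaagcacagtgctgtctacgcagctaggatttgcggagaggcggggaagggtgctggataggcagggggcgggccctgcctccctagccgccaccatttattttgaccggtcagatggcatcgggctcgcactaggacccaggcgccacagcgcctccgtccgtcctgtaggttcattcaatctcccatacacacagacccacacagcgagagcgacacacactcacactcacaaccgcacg
Mxi1 downstream promoter: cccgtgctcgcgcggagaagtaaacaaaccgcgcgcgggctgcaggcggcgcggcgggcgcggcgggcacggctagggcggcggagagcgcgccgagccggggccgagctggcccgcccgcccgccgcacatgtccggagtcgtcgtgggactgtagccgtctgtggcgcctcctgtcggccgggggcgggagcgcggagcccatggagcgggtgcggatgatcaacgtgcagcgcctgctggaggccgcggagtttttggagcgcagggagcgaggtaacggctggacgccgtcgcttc

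Mxd1 (chromosome 6), a repressor that appears as cells differentiate, had levels of 10.05, 9.998 and 9.66 in wild type and of 9.58, 9.83 and 9.60 in knockout arrays. Wild type replicate 3 lay among the knockout values and the others above them. The log2 change was -0.23 (SE 0.13, 95% interval -0.54 to 0.07, limma adjusted p = 0.491).

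Mxd3 (chromosome 13), the progenitor member, had the widest spread in knockout tumours among the brightest features of the network genes. It had levels of 8.12, 8.13 and 8.38 in wild type and of 7.93, 8.41 and 7.62 in knockout arrays, with SDs of 0.15 and 0.40. Knockout replicate 2 was the highest of all 6 arrays and knockout replicate 3 the lowest. The log2 change was -0.23 (SE 0.19, 95% interval -0.67 to 0.22, limma adjusted p = 0.654), and leaving out single arrays gave -0.44 (without knockout replicate 2) to -0.043 (without knockout replicate 3).

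Mxd4 (chromosome 5), a further MXD repressor, had levels of 9.64, 9.69 and 9.32 in wild type and of 9.53, 9.51 and 9.41 in knockout arrays. Its knockout values all lay within the wild type range, and the log2 change was -0.06 (SE 0.12, 95% interval -0.34 to 0.21, limma adjusted p = 0.861).

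Within the MXD group the lower change of Mxi1 was compared with the others. The change of Mxd4 lay above that of Mxi1 by 0.48 (SE 0.04), and that of Mxd1 by 0.32 (SE 0.09), each with an exact permutation p = 0.1 and an adjusted value of 0.225. Mxd3 lay 0.32 above Mxi1 with a larger error (SE 0.25, exact permutation p = 0.3, adjusted 0.45), and 0.13 without knockout replicate 2 or 0.48 without wild type replicate 3. With the mean of both Mxi1 features these differences were 1.10 for Mxd4, 0.93 for Mxd1 and 0.93 for Mxd3, each with an exact permutation p = 0.1. Which strand the dimmer Mxi1 feature reads is not given, so these larger differences may not be of Mxi1 mRNA alone. The pairs without Mxi1 differed by -0.17 to -0.0041, with exact permutation p-values of 0.2 to 1.

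Mnt (chromosome 11), a widely expressed MAX-binding repressor that acts as the general counterpart of MYC, also had separated groups. Its levels were 8.39, 8.43 and 8.36 in wild type and 8.10, 8.27 and 8.19 in knockout arrays. The wild type arrays differed little (SD 0.03) and the nearest knockout value was 0.08 lower. The log2 change was -0.20 (SE 0.09, 95% interval -0.41 to 0.00093, limma adjusted p = 0.366).

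The Mnt promoter is shown because it is the one among the separated genes that holds an E-box, the site MAX dimers bind. It lies at chr11:74830674-74830973 on the plus strand (GRCm38.p6), and the capitals mark the E-box, which begins 123 bases before the start.

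Mnt promoter: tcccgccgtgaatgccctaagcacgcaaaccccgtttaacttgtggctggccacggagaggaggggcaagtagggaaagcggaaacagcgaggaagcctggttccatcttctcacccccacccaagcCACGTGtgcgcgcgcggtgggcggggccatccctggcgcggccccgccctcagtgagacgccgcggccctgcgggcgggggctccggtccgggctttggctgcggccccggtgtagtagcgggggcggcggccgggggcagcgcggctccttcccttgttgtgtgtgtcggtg

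E-boxes also occurred in the windows of Max, 3 bases before the start, and of Mxd4, 219 bases before it. In all 3 of the 9 members with a promoter in the table held an E-box, against 8.09% of 27025 genes. The E-box contains a CpG, and the member windows held 14 to 49 CpGs against a median of 7 over all promoters. These shares therefore come from unlike windows. The core of the cyclic AMP response element, TGACG, the sequence that CREB factors bind and through which they recruit CREBBP, occurred in the window of Mga alone, against 23% of genes, and the full element TGACGTCA in 0 of the 9 members, against 2.03%. A match of letters is a description and does not show binding.

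Mga (chromosome 2), the largest protein of the network, had levels of 10.62, 10.61 and 10.73 in wild type and of 10.63, 10.78 and 10.62 in knockout arrays. The groups overlapped throughout, with a log2 change of 0.02 (SE 0.09, 95% interval -0.19 to 0.23, limma adjusted p = 0.948).

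Single arrays stood out across the network. Knockout replicate 3 was the lowest of the 6 arrays in 5 of 10 genes (Mycn, Myc, Mycl, Mxd3 and Mxi1), against 19.7% of all genes, and wild type replicate 2 was the highest in 6, against 20% of all genes. Members do not vary independently of each other, and no test was made of these counts.

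The wider network was described with lists of partners, and with lists of target genes. By limma 0 of the 99 genes measured in the 9 lists passed the threshold over all genes, and 14 (14.1%) had an unadjusted p under 0.05, against 13.8% of all genes. Of these, 12 had lower knockout levels (12.1% of the 99, against 6.51% of all genes) and 2 higher ones (2.02%, against 7.24%). MLX, MLXIP and MLXIPL form the glucose-sensing branch that shares MXD partners, and Mlx, Mlxip and Mlxipl had log2 changes of 0.07, 0.05 and -0.03. Of 11 measured MYC cofactors, such as acetyltransferase complex subunits, 8 had changes below 0, with a median of -0.05 and 0 at an unadjusted p under 0.05. Bptf, a chromatin remodeller subunit, and Hcfc1, an X-linked, MYC-binding host cell factor, had the smallest p. Their changes were -0.13 (SE 0.09) and -0.15 (SE 0.11).

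The corepressors used by MXD and MNT had a median of 0.03 over 6 measured genes. The deacetylase Hdac2 had a log2 change of -0.19 (SE 0.09) with all knockout values lower, and Sin3b, a SIN3 scaffold, one of 0.16 (SE 0.08) with all knockout values higher (limma adjusted p = 0.426 and 0.429). Of 9 partners of MGA in the variant Polycomb complex 7 had changes below 0, with a median of -0.14, which was -0.055 without wild type replicate 2. Yaf2, a RING1-binding subunit, was at 10.48 to 10.60 in wild type and at 10.18 to 10.35 in knockout arrays (log2 change -0.28, SE 0.09, adjusted p = 0.253), and Cbx3, a heterochromatin protein, had a change of -0.17 (SE 0.10). The 9 measured genes of MYC protein turnover had a median of -0.0075, with the deubiquitinase Usp7 at -0.18 (SE 0.08) and the mitotic kinase Plk1 at -0.24 (SE 0.14).

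Known MYC targets of the nucleolus and ribosome biogenesis had changes of both signs. Of 21 measured genes 15 had changes above 0 and 6 below, with a median of 0.07 (0.025 without wild type replicate 1, 0.035 without knockout replicate 1 and 0.12 without knockout replicate 3). All knockout values were higher in 3 (against 10.2% of all genes) and lower in 0 (against 9.43%). By limma 1 had an unadjusted p under 0.05, against 13.8% of all genes. Rrp12, a ribosome export factor, was at 8.37 to 8.48 in wild type and at 8.63 to 8.77 in knockout arrays, with a log2 change of 0.29 (SE 0.09, limma adjusted p = 0.235). Tcof1, the nucleolar protein treacle, had one of -0.34 (SE 0.15, adjusted p = 0.381) with overlapping groups.

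Targets of metabolism and growth were divided. Of 22 measured genes 12 had changes below 0 and 10 above, with a median of -0.02. Ccnd2, a D-type cyclin active in granule progenitors, had levels of 12.49, 12.55 and 12.63 in wild type and of 11.83, 12.09 and 11.69 in knockout arrays. Its log2 change was -0.69 (SE 0.12, limma adjusted p = 0.0948), with groups well apart. Nme1, a nucleoside diphosphate kinase, had levels of 8.86, 8.93 and 8.73 in wild type and of 8.24, 7.59 and 7.21 in knockout arrays, a change of -1.16 (SE 0.24, adjusted p = 0.126). The neighbouring and closely similar Nme2 has no feature of its own name here, so the values of Nme1 are uncertain.

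Genes that MYC is known to repress, mainly inhibitors of cyclin-dependent kinases, had a median of -0.31 over 7 measured genes, and of -0.20 without wild type replicate 1. In 4, Cdkn1a, Cdkn1b, Cdkn2b and Cdkn2c, each knockout value lay below the wild type range, as in 9.43% of all genes. The groups nearly met in Cdkn2b (highest knockout value 7.957, lowest wild type value 7.959) and in Cdkn1b (10.89 and 10.93). Ndrg1, Ndrg2 and Clu had changes above 0 with overlapping groups. Cdkn2c (p18) had a log2 change of -0.51 (SE 0.13) and Cdkn1a (p21) one of -0.80 (SE 0.21), both with a limma adjusted p = 0.184. In Cdkn1a knockout replicate 3 (8.67) lay far below the other knockout arrays (9.45 and 9.47), and wild type arrays were at 9.92 to 10.06.

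**Figure D4:**
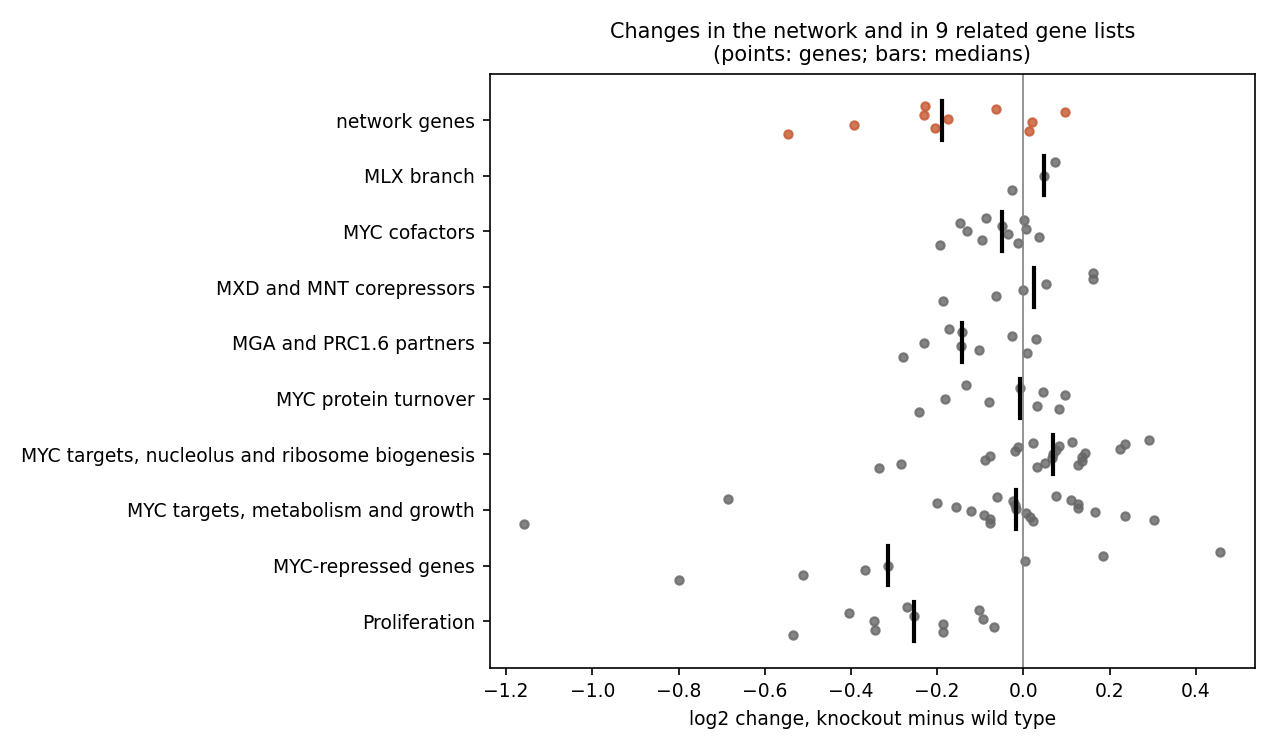
Log2 change (x axis, knockout minus wild type) of each measured gene in the network and in 9 related lists, with the median of each list as a bar. The network median lies at -0.19, that of nucleolar MYC targets at 0.07, and those of proliferation genes and MYC-repressed genes at -0.25 and -0.31.

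Genes of proliferation are given beside Mycn and Mxd3, which are tied to cycling progenitors. All 11 measured genes had changes below 0 (49.1% of all genes), and in 7 every knockout value was lower than every wild type value (9.43% of all genes). The median was -0.25, or -0.16 without knockout replicate 3. By limma 0 passed over all genes and 5 had an unadjusted p under 0.05, against 6.51% of all genes with lower knockout levels. E2f1 had a log2 change of -0.40 (SE 0.11, limma adjusted p = 0.198) and Foxm1, a mitotic transcription factor, one of -0.54 (SE 0.16, adjusted p = 0.221). The mean level of the list was 10.71 to 10.82 in wild type arrays and 10.59, 10.63 and 10.35 in knockout replicates 1 to 3. Knockout replicate 3, the lowest array of Mycl and Mxd3, was thus the lowest here too.

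Markers of the cells a tumour can hold are given as mean levels per array. The ranges of the groups were separate for granule progenitor and microglia markers and overlapped for the other 5 lists. The mean level of 8 granule progenitor markers was 10.70 to 11.07 in wild type and 10.45 to 10.59 in knockout arrays, with 7 of 8 changes below 0. In 6 of them every knockout value was lower (9.43% of all genes). Neurod1 had the lowest change of the list (-1.14, SE 0.23), and most of the gap between these means rests on it. Whether the list follows progenitors alone was not tested. Atoh1 overlapped between the groups (11.54 to 11.64 and 10.93 to 11.56, log2 change -0.28, SE 0.16, limma adjusted p = 0.481). Markers of mature granule neurons had means of 8.11 to 8.63 and 8.57 to 9.78 (4 of 6 changes above 0), and those of Purkinje cells and inhibitory neurons 6.70 to 7.62 and 7.55 to 8.60 (6 of 6 above 0). Astrocyte and Bergmann glia markers were at 10.06 to 10.82 and 10.65 to 10.82 (6 of 8 above 0). Oligodendrocyte lineage markers were at 8.92 to 9.54 and 8.82 to 9.07 (6 of 7 below 0), and microglia and macrophage markers at 9.24 to 9.45 and 8.94 to 9.17 (8 of 8 below 0). Endothelium and pericyte markers were at 7.98 to 8.19 and 7.998 to 8.35 (6 of 8 above 0). By limma 0 of the 51 marker genes passed over all genes, and 27 (52.9%) had an unadjusted p under 0.05 against 13.8% of all genes, 13 with higher and 14 with lower knockout levels. The part of these shifts in the values of Mycn, Mxi1 and Mnt was not tested.

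**Figure D5:**
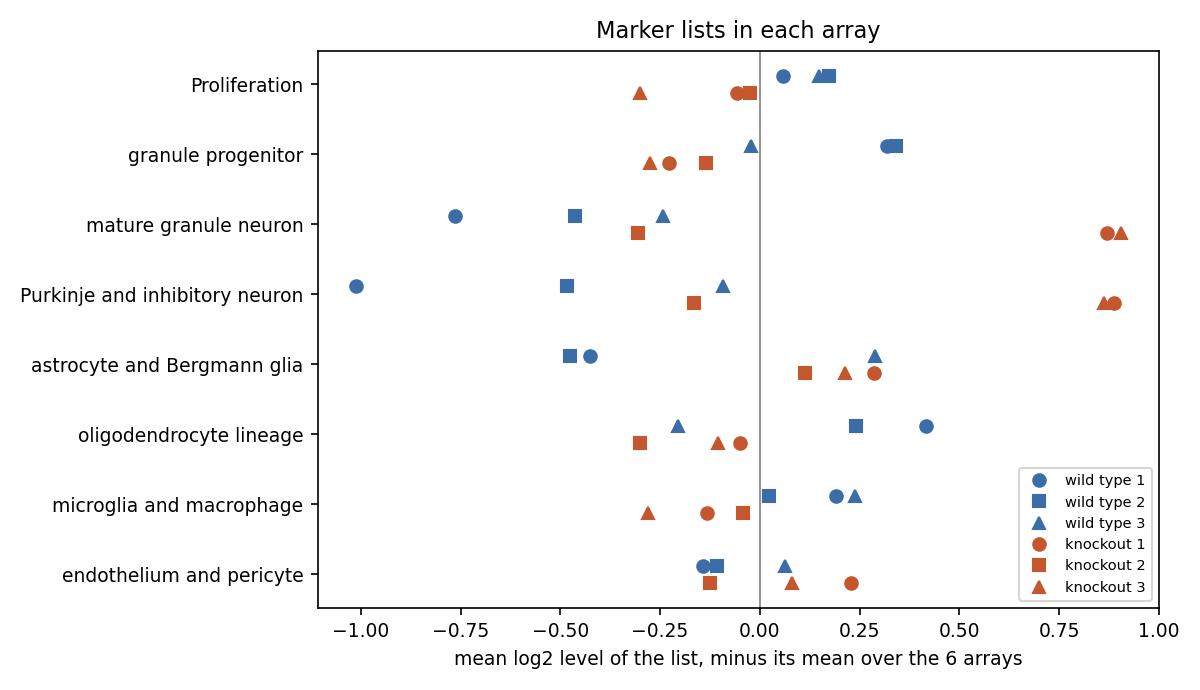
Mean log2 level of proliferation genes and 7 marker lists in each array, minus the mean of the list over the 6 arrays (x axis), with wild type in blue and knockout in orange. Proliferation, granule progenitor and microglia lists are lower in all knockout arrays, and knockout replicate 2 lies near the wild type arrays in the mature granule neuron and Purkinje cell lists.

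The genes whose pattern over the 6 arrays was most like that of Mycn were sought among 11089 genes with a mean above the median. Prps1, an X-linked enzyme of nucleotide synthesis, Gli2, an SHH transcription factor, and the non-coding Stk35os1 had Pearson correlations of 0.996, 0.994 and 0.99 with it. In all 81 genes had a correlation above 0.95 over these 6 arrays, which share the difference between the groups. Gli2 had levels of 9.37 to 9.58 in wild type and of 9.20 to 9.28 in knockout arrays (log2 change -0.24, SE 0.09, limma adjusted p = 0.318).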

How the data were processed

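Expression was measured on 6 Affymetrix whole-transcript arrays, 1 per sample. The authors deposited log2 values, and the submitters' processing notes name RMA and the oligo package without versions. RMA removes shifts shared by most genes and compresses changes of dim features. Array medians were 6.91 to 7.0. Precision is limited by the number of arrays, which have no read depth. The platform table gave 23521 of 41345 features 1 symbol, 1814 several, and 16010 are unnamed here; names, strands and promoters came from RefSeq (GRCm38.p6), and all 10 members matched, 9 of them in the promoter table. The deposited values were tested with limma 3.58.1 in R 4.3.3 (lmFit, eBayes, two-sided, Benjamini-Hochberg over 22180 genes, threshold 0.05). On simulated independent values only the mean estimates of this fit were checked. Differences between paralogues were tested with exact permutation tests. Named genes were the members, Crebbp and the 3 genes most like Mycn. Of each pathway list the genes past the threshold were named, or else the 2 with the smallest p. Others (Cdkn1b, Cdkn2b, Ndrg1, Ndrg2, Clu, Atoh1, Zic1, Neurod1, Xist and Kdm5d) were chosen after their values were seen. The members and lists were chosen with earlier results of these data known. Alternatives covered scaling, dim genes, the variance model, array weights, features, a replicate block and each array left out.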

Additional observations from a re-analysis of the deposited data

How the results depend on the processing

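Across 9 alternatives and 6 fits that each left out 1 array, Mycn, Mxi1, Mnt, Mxd1 and Mxd3 kept log2 changes below 0, and 0 members passed the threshold except under eBayes with trend and robust, where 1 (Mxi1) did. The 46 genes past the threshold over all genes became 77 without the dimmest 25% of genes, 137 with trend and robust, and 22 with every feature tested. Leaving out single arrays gave 4 to 128 genes: 12, 18 and 99 without wild type replicates 1, 2 and 3, and 15, 128 and 4 without knockout replicates 1, 2 and 3. The replicate block gave 12 genes; same-numbered arrays did not deviate together (correlations of -0.029, 0.052 and 0.10), not every array correlated best with its own number, and the block changed no call of a member. Changes near 0 turned sign. Max went to -0.016 with array medians subtracted and -0.011 with array weights, and Mga to -0.0080 with array medians subtracted. With arrays left out Max ran from -0.033 to 0.097, Mga from -0.032 to 0.058, Myc from -0.0017 to 0.24, Mycl from -0.28 to 0.0096 and Mxd4 from -0.18 to 0.0066. The difference between Mxd1 and Mxd3, -0.0041, was 0.064 with quantile normalization repeated and ran from -0.21 to 0.12 with arrays left out, and that between Mxd3 and Mxd4 from -0.36 to 0.037. The cause was not tested. List medians near 0 also turned sign with arrays left out: the MLX branch ran from -0.00071 (without wild type replicate 3) to 0.092, MYC cofactors from -0.12 to 0.0025 (knockout replicate 3), corepressors from -0.0099 (wild type replicate 1) to 0.073, protein turnover from -0.031 to 0.038 (above 0 without wild type replicates 1 or 2) and metabolic targets from -0.044 to 0.037 (above 0 without wild type replicates 2 or 3 or knockout replicate 3). The fits of the Mxi1 feature 17365690 were added after the data were seen and gave -1.81 to -1.74 with all arrays.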

Other observations

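The promoter windows of the network genes were rich in CpG dinucleotides. The 11 windows of 9 members had 14 to 49 CpGs and a GC content of 56% to 76.7%, against medians of 7 CpGs and 52.7% over all promoters of the same length. Mxi1 had 12 RefSeq transcripts, Max 10 and Mga 19, while Mycn and Mxd4 had 1 each.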
